A study of Mus musculus with 4 samples.

Results

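The genes Igfbp2 and Igfbp5 lie tail to tail on mouse chromosome 1, and the contacts made by the stretch that holds them were mapped by Capture-C in 4 libraries from mouse embryonic stem cells (mESCs) of the E14 line. The anchor was taken as the 9 bins of 6.4 kb at chr1:72870401-72928000 (mm9), with every other bin of the captured region chr1:72083201-75654400 as a possible partner. This gave 4986 bin pairs out of 155961 in the region, of which 4932 had a value in all libraries. The anchor had been picked because of its contact profile in these same maps, so that profile is described here and not tested. Each of the lines is a single clone derived from E14 cells in which CTCF sites inside a domain on chromosome 15 had been deleted, and all carry TetO and LacO operator arrays in that domain and RAD21, a subunit of cohesin, fused to HaloTag and FKBP. Line 1B1 has 3xCTCF cassettes in convergent orientation beside the arrays, whereas lines 1A2 and 1F4 lack them, and 1F4 in addition retains the promoters of the resistance genes used for selection. The fourth library came from 1B1 cells given 500 nM dTAG-13 for 2 h, a compound that directs the FKBP-tagged RAD21 to degradation. As the arrays are on another chromosome, the 3 untreated libraries stand side by side below, and the treated library is set against untreated 1B1. There was 1 library per group, so that no difference between libraries has a replicate check, and the errors given are those of read counting alone.

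Igfbp2 and Igfbp5 encode insulin-like growth factor binding proteins, secreted proteins that bind the growth factors IGF1 and IGF2 and so set how much of them reaches the IGF1 receptor. Cohesin is a ring-shaped complex that is thought to extrude loops of chromatin until it is halted, most often at DNA bound by CTCF in an orientation that faces the loop. In contact maps this process gives bright points at pairs of such sites, and poor mixing across them. Of 12 genes of the IGF system (ligands, receptors and binding proteins), 2 lay in the captured region, namely Igfbp2 and Igfbp5.

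Igfbp2 spans chr1:72871077-72899048 on the plus strand and Igfbp5 spans chr1:72904506-72921458 on the minus strand, so that their starts are 50.4 kb apart and face away from each other, with 5.46 kb between their ends. The nearest gene on the Igfbp2 side was Rpl37a (chr1:72757834-72760383), which encodes a protein of the large ribosomal subunit and ends 110.7 kb before the Igfbp2 start. On the Igfbp5 side the nearest gene was Tnp1 (chr1:73061657-73062473), which encodes a transition protein of spermatid chromatin, at 140.2 kb from the Igfbp5 start. Tns1, the gene of the focal adhesion protein tensin 1 (chr1:73956805-74171021, minus strand), comes 1035 kb after the Igfbp5 start with its 3′ end first, and the annotation places only 2 genes in the interval between, Tnp1 and a copy of 5S_rRNA. This interval is called gene-poor below.

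The 250 bases before each start are printed because they mark where the 2 genes begin, near the outer edges of the anchor. They were read from NCBIM37 (mm9) on the strand of the gene, at chr1:72870827-72871076 (plus) for Igfbp2 and at chr1:72921459-72921708 (minus) for Igfbp5, the latter crossing from the Igfbp5 start bin into the last bin of the anchor. Capitals mark GC boxes, to which SP1-type factors bind, and TATA-like stretches, searched on either strand by the letters given after the sequences.
Igfbp2 promoter: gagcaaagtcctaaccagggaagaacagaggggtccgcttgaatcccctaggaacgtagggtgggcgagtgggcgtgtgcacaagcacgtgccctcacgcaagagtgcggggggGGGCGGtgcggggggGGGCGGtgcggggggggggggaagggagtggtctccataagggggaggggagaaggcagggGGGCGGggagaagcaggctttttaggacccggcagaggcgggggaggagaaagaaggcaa
Igfbp5 promoter: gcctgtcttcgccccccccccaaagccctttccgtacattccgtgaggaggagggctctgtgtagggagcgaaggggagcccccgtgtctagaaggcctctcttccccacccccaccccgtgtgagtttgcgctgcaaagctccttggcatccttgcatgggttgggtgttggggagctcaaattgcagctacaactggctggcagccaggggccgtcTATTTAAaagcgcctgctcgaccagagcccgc
The Igfbp2 promoter held 3 GC boxes and no TATA-like stretch, and the Igfbp5 promoter held 1 TATA-like stretch that began 32 bases before the start and no GC box. Over the 32851 promoters of the RefSeq table (GRCm38.p6), the same 250 bases held the GC box letters, GGGCGG, in 32.7% and the TATA-like letters, TATNNAA, in 29.0%.

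CTCF binds a long motif, and a core of that motif (CC, any 3 bases, AG, any 2 bases, GGC, any base, then G) was searched on both strands in the anchor and in the far bins of its focal contacts. The matches in the anchor and in the gene-poor interval are printed within stretches of 100 bases, in the direction of the motif and with the match in capitals. Each lies in a bin on which a contact described below is centred. The anchor and gene-poor matches are not the ends of the same contacts, however. The anchor matches lie in the bin at chr1:72876801-72883200, on which only an upstream contact is centred. The contacts at 749 and 954 kb are centred on the Igfbp5 start bin. Both anchor matches lie in an intron of Igfbp2, at chr1:72878150-72878249 (plus) and chr1:72879085-72879184 (minus), and the others lie between genes at chr1:73664406-73664505 (minus), chr1:73873026-73873125 (minus) and chr1:73873690-73873789 (plus).
Igfbp2 intron, plus: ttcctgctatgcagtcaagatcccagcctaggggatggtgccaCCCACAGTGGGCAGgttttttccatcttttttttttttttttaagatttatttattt
Igfbp2 intron, minus: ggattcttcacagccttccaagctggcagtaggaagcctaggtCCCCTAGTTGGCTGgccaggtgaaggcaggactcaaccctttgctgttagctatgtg
Gene-poor, 749 kb contact: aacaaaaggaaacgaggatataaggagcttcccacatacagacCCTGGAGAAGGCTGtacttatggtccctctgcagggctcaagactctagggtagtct
Gene-poor, 954 kb contact, minus: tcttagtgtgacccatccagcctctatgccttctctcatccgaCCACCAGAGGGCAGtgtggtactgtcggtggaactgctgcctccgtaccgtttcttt
Gene-poor, 954 kb contact, plus: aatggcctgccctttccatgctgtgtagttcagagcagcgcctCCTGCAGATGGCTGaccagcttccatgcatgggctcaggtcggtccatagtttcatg
Of the 9 anchor bins 1 held a match, as did 2 of the 6 far bins of the Igfbp5 start series and 4 of the 13 far bins of all focal contacts, against 20.3% of the 558 bins of the region. In windows of 3 bins, the size of a focal contact, the numbers were 3 of 9, 2 of 6 and 6 of 13. These are 33.3%, 33.3% and 46.2%, against 46.8% of the windows of the region, so the far bins did not exceed the regional share at that size. The bin with the Igfbp5 start held none. These letters describe the sequence and do not report binding, which was not measured here.

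Reads were recovered from the balanced values, and the captured region on chromosome 1 held between 1648754 (1A2) and 2102384 (1F4) of them, with 1677423 in untreated 1B1 and 1848616 in the treated library. Those with an end in the anchor numbered 46906 in 1A2, 58929 in 1F4 and 49956 in 1B1, against 44327 after treatment. They made up 2.84% of the region's reads in 1A2, 2.80% in 1F4 and 2.98% in 1B1, and 2.40% in the treated library. The median bin pair of the anchor held 3 reads in each library, and therefore values were summed over blocks of bins. Contact is given as observed/expected, the balanced value divided by the mean at the same genomic separation in the region, so that 1 is the regional average. Intervals are exact 95% Poisson intervals on the recovered reads. Reads carried no molecular identifiers, so the intervals cover counting error only.

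Untreated cells showed the same course of contact along the region in all 3 libraries (profile of the whole anchor by distance). Just downstream of Igfbp5 the contact was low, and 119 kb from the Igfbp5 start it was 0.444 in 1A2, 0.427 in 1F4 and 0.441 in 1B1. It rose across the gene-poor interval in a series of peaks, and the highest value lay in the bin at chr1:73868801-73875200, at 9.67 in 1A2, 10.2 in 1F4 and 7.88 in 1B1. On the Igfbp2 side the highest value lay in the bin at chr1:72761601-72768000, next to Rpl37a, at 3.75, 3.91 and 3.31. After cohesin degradation these values were 3.45 at the far downstream bin and 2.00 beside Rpl37a, below all 3 untreated libraries at both places. At 119 kb downstream the treated library gave 0.454, close to the untreated libraries.

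**Figure D1:**
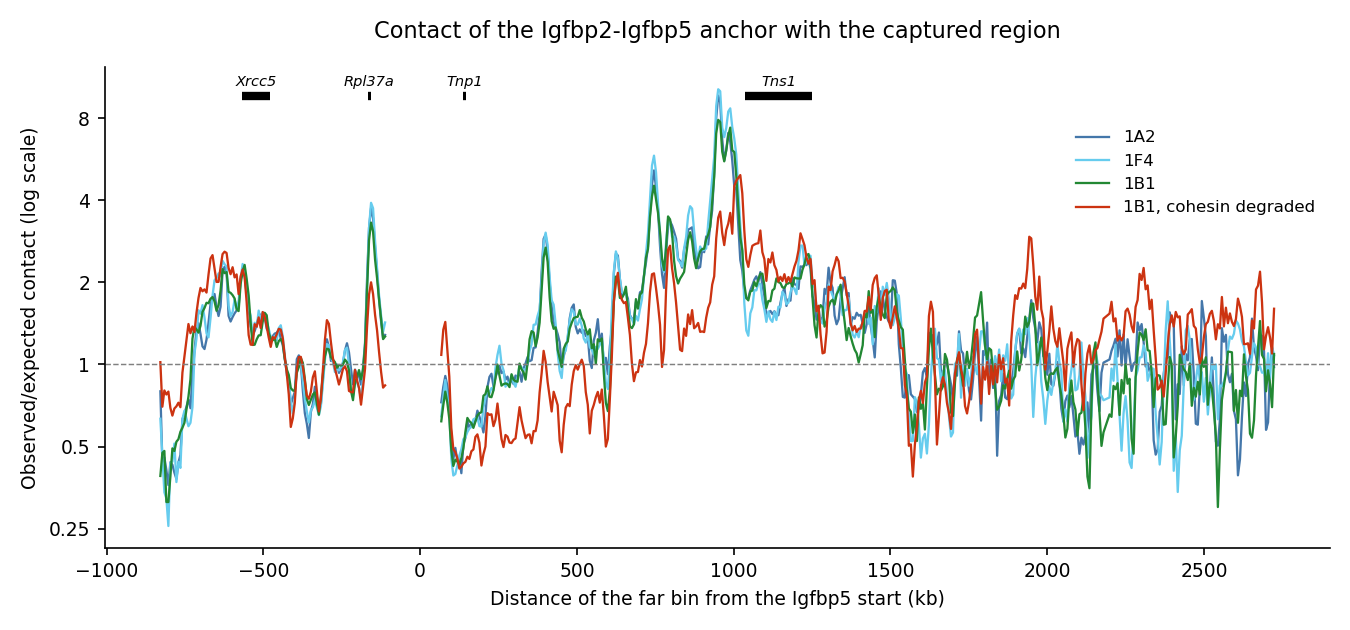
Observed/expected contact of the 9 anchor bins with windows of 3 bins (log scale) against the distance of the window from the Igfbp5 start in kb, 1 line per library; the gap around 0 holds separations under 60 kb, bars mark genes (the shortest widened to be visible) and the dashed line marks the regional average. The 3 untreated lines peak at 7.88 to 10.2 some 951 kb downstream, where the treated line is at 3.45.

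Summed over bands of distance, the 2 sides of the anchor differed close to it. From 60 to 250 kb upstream the contact was 1.46 in 1A2 (95% interval 1.43 to 1.49), 1.49 in 1F4 (1.46 to 1.52) and 1.38 in 1B1 (1.35 to 1.41), and it was 1.05 (1.02 to 1.08) in the treated library. Over the same distances downstream it was 0.590 (0.570 to 0.610), 0.570 (0.552 to 0.587) and 0.571 (0.552 to 0.590), and 0.673 (0.649 to 0.698) after treatment. The near upstream contact thus fell by 0.39 ± 0.03 on the log2 scale (counting error) in the treated library against 1B1. The near downstream band as a whole was 0.24 ± 0.04 higher in observed/expected, though it held 2981 reads after treatment against 3583 in 1B1. Its rise is therefore relative to the mean of each library at the same separations. The band was not remeasured without division by the expected value. That band was mixed, with all 9 windows from 67.3 to 119 kb from the Igfbp5 start above 1B1 (by 0.04 to 0.92) and all 20 windows from 125 to 247 kb below it (-0.71 to -0.05). In the near upstream band 24 of 30 windows were below 1B1. The untreated libraries differed from 1B1 by at most 0.11 in these bands.

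Farther downstream the contact of untreated cells passed the regional average. From 750 to 1000 kb it was 3.601 in 1A2, 3.91 in 1F4 and 3.42 in 1B1, from 3789, 4703 and 4250 reads, and it was 1.85 from 1517 reads in the treated library. The fall in the treated library against 1B1 was by 0.88 ± 0.04 on the log2 scale, by 0.56 ± 0.05 from 500 to 750 kb and by 0.85 ± 0.05 from 250 to 500 kb. Contact of the anchor with the whole gene-poor interval was 1.32 (1.30 to 1.34) in 1A2, 1.35 (1.33 to 1.37) in 1F4 and 1.29 (1.27 to 1.31) in 1B1, against 0.935 (0.913 to 0.957) after treatment, a fall by 0.47 ± 0.02 on the log2 scale. From within Tns1 onwards the change in observed/expected ran the other way, and its size differed by band. The first band, which ended at 1300 kb, gave 1.85, 1.84 and 1.95 in untreated cells and 2.39 after treatment, higher by 0.29 ± 0.05. From 1300 to 2000 kb the values were 1.26, 1.23, 1.24 and 1.35, higher by 0.12 ± 0.05. From 2000 to 2700 kb the contact was 0.939, 0.888 and 0.822 in untreated cells and 1.35 after treatment, higher by 0.72 ± 0.07. Reads in this last band went from 698 in 1B1 to 1393 in the treated library. In the band that ended at 1300 kb they went from 1699 to 1645, and from 1300 to 2000 kb from 1571 to 1575. The rises up to 2000 kb are therefore relative to the mean of each library at the same separations. These bands were not remeasured without division by the expected value.

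The turn between loss and gain in observed/expected fell just before the near end of Tns1. At 995 kb the anchor contact was 5.59 in 1A2, 7.42 in 1F4 and 6.10 in 1B1, against 3.01 in the treated library, lower by 1.02 ± 0.17 on the log2 scale. At 1021 kb, in the bin at chr1:73939201-73945600, it was 2.42, 3.24 and 2.93 in untreated cells and 4.95 in the treated library, higher by 0.76 ± 0.24. This was the highest anchor contact of the gene-poor interval in the treated library, and it lay beyond the bin of the untreated maximum.

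**Figure D2:**
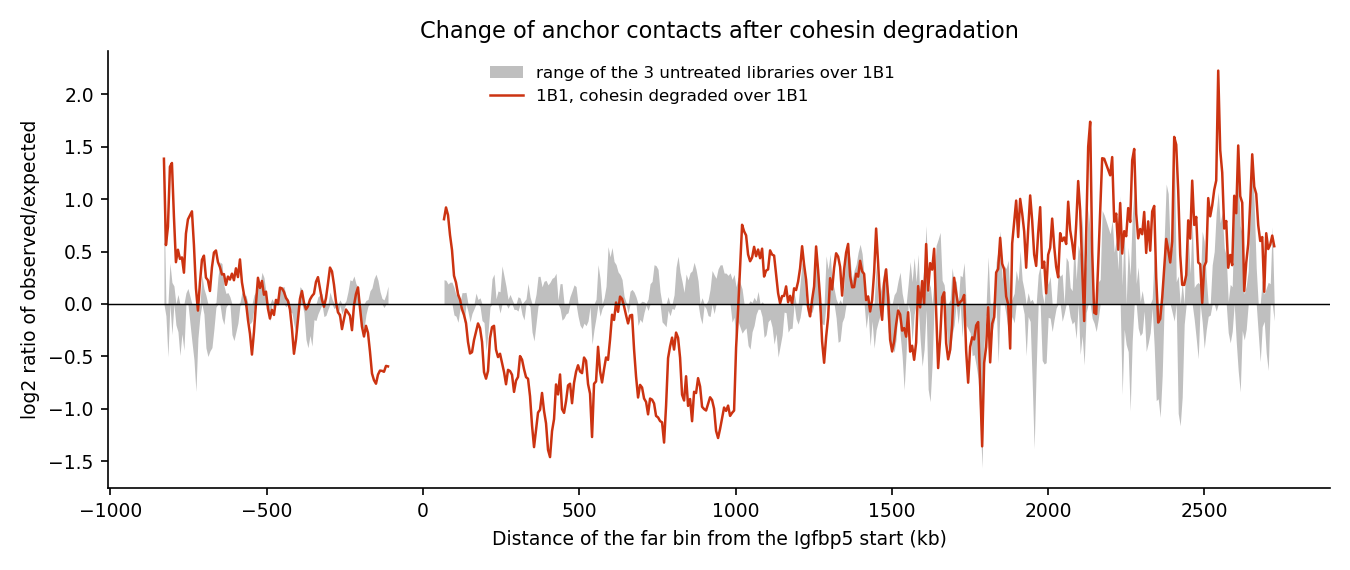
Log2 ratio of observed/expected between the library with cohesin degraded and untreated 1B1 (line) against distance from the Igfbp5 start in kb, with the range spanned by the 3 untreated libraries over 1B1 in grey. The line lies below the grey range over most of the interval from 250 to 1000 kb, crosses 0 between 1008 and 1021 kb and lies mostly above 0 beyond 2000 kb, where the grey range is wide because reads are few.

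Target windows were counted by a fixed size of change. Of 523 windows at least 60 kb from the anchor, 93 were at least 1.5-fold lower in the treated library than in the lowest untreated library, which is 17.8%, and 42 were at least 1.5-fold higher than in the highest. With an expected value taken as the median in place of the mean, these counts were 96 and 10, so that the number of higher windows rests on that choice. Over all 272901 blocks of the same shape in the region, 7.28% were lower by this rule and 8.46% were higher. Because the anchor was picked from these maps and neighbouring windows share bins, nothing is read from the gap between these shares. The windows that were lower lay almost wholly in the gene-poor interval, with 83 of its 150 windows, against 9 of 111 upstream and 1 of 262 from Tns1 onwards. All 9 upstream windows lay in chr1:72755201-72812800, from the Rpl37a start towards Igfbp2. Downstream, 48 of the 78 windows from 250 to 750 kb were lower, where all blocks at these separations gave 4.87%, as were 35 of the next 46, where all blocks gave 9.16%. All of these 46 were at 1.5 or more in each untreated library, and in the whole profile 128 windows were, or 24.5%, beside 12.9% of all blocks. At 3 or more there were 24 windows, or 4.59%, beside 0.944% of all blocks. The windows that were higher numbered 32 from Tns1 onwards, 6 upstream and 4 in the gene-poor interval, and those 4 lay at 73.7 and 80.1 kb and at 1021 and 1027 kb from the Igfbp5 start.

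Single contacts stood out from their surroundings in both 1A2 and 1F4 at 14 places. Such a focal contact is a window of 3 by 3 bins that exceeds the surrounding ring by at least 1.5-fold in 1A2 and 1F4 and is a local maximum. 1B1 and the treated library took no part in calling these contacts. The anchor itself was picked from maps that include both, so their values are not free of selection. In 1B1 the ratio to the ring was below 1.5 at 6 of the 14 (1.26 to 1.43). Of the 14 contacts, 6 were windows centred on the bin with the Igfbp5 start (chr1:72915201-72921600) and on a bin of the gene-poor interval, forming a series with gaps of 89.6 to 134.4 kb. This series depended on how contacts were called, with 4 of the 6 found again in windows of 5 bins or at a ring threshold of 2, and 5 with the median expected value or with unbalanced reads. With unbalanced reads 17 contacts were called, of which 8 lay within 2 bins of one of the 14. Of the other 8, 7 began in Igfbp2 and 1 in the last bin of the anchor.

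These windows also take in the bin inside Igfbp5 and the last bin of the anchor, and read from single anchor bins the start bin was highest in all 3 untreated libraries at 627 kb alone. At 749 kb the bin inside Igfbp5 gave 10.1, 11.04 and 8.48 and the start bin 8.05, 9.50 and 6.38.

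The strongest contact of the series lay between the window at the Igfbp5 start and chr1:73868801-73875200, at a separation of 954 kb. Its observed/expected was 15.3 in 1A2 (13.7 to 16.99, 351 reads), 17.03 in 1F4 (15.5 to 18.7, 453 reads), 11.2 in 1B1 (10.0 to 12.4, 340 reads) and 4.75 in the treated library (3.79 to 5.88, 84 reads). The treated library was lower than 1B1 by 2.36-fold, and their intervals did not overlap. The untreated libraries also differed from each other here, 1F4 being 0.61 above 1B1 on the log2 scale.

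The contact at 749 kb (chr1:73664001-73670400) was next, with 8.75 in 1A2, 10.2 in 1F4 and 7.76 in 1B1 from 245, 335 and 260 reads. In the treated library it was 3.33 from 65 reads, lower than in 1B1 by 1.22 ± 0.20 on the log2 scale. The contact at 403 kb (chr1:73318401-73324800) was 5.66, 6.10 and 4.76 in the untreated libraries and 1.57 in the treated library, where 77 reads remained against 428 in 1B1, lower by 1.60 ± 0.18. These 3 contacts all stayed above the regional average of 1 after treatment.

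Of the remaining contacts of the series, those at 627 and 493 kb were weaker than that at 403 kb in each untreated library. The contact at 864 kb was above that at 403 kb in 1F4 and 1B1 and below it in 1A2. At 627 kb (chr1:73542401-73548800) the values were 3.78 in 1A2, 3.73 in 1F4 and 2.86 in 1B1, against 2.60 in the treated library, a difference from 1B1 of -0.14 ± 0.20 that did not exceed the counting error. At 864 kb (chr1:73779201-73785600) they were 5.11, 6.58 and 4.94 and 1.45 after treatment, where 22 reads remained of 129 in 1B1 and the interval of 0.909 to 2.20 included the regional average. At 493 kb (chr1:73408001-73414400) they were 2.56, 2.75, 2.20 and 1.47, and the ratio to the ring in 1B1 was 1.38. The contacts at 864 and 493 kb fall outside the 8 with the highest ratio to their ring and are named because they complete the series. In the treated library the ratio to the ring was 1.62 at 954 kb, 2.10 at 749 kb, 1.55 at 403 kb and 2.06 at 627 kb. It was 0.685 at 864 kb and 1.36 at 493 kb. Over the 6 contacts the change in observed/expected after treatment ran from -1.77 to -0.14 on the log2 scale with a median of -1.23. The treated library was below 1B1 in 6 of 6, within counting error at 627 kb. The count is given against 1B1 alone, since 1A2 and 1F4 were used to call the contacts. It describes these maps and tests nothing, because the anchor was picked from them. The median change over all windows of the region was also taken at the separation of each of the 14 focal contacts, and these medians had a median of 0.02.

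**Figure D3:**
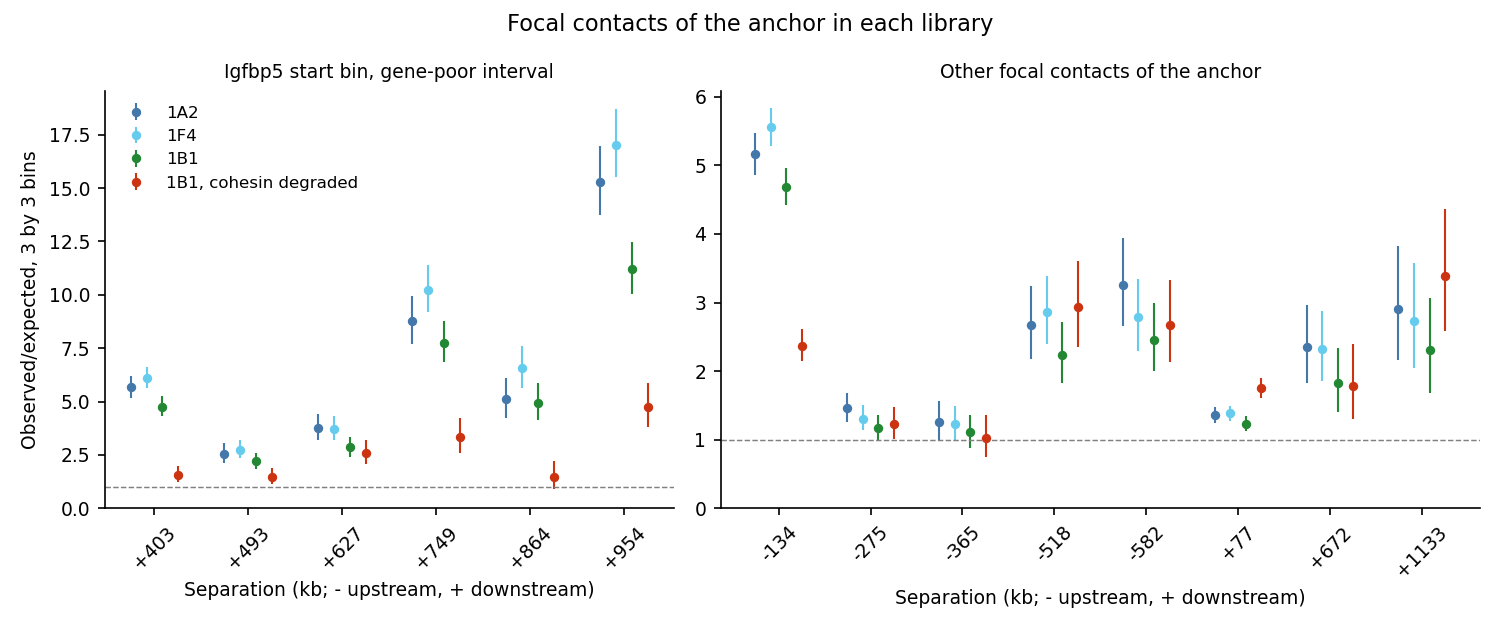
Observed/expected of the 14 focal contacts in 3 by 3 bins with exact 95% Poisson intervals, 1 colour per library, by separation in kb; the left panel shows the 6 contacts of the Igfbp5 start bin with the gene-poor interval and the right panel the other 8, on separate scales. Against 1B1, which was not used to call the contacts within the anchor, the treated library has 4.75 beside 11.2 at 954 kb. At 627 kb it has 2.60 beside 2.86 with overlapping intervals.

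On the Igfbp2 side the contact with the highest ratio to its ring of all 14 joined the bin with the 3′ end of Igfbp2 (chr1:72896001-72902400) to the bin after Rpl37a, at 134.4 kb. Its observed/expected was 5.16 in 1A2, 5.55 in 1F4 and 4.68 in 1B1, from 1137, 1553 and 1158 reads, and 2.37 in the treated library from 401 reads. The treated library was lower than 1B1 by 0.98 ± 0.08 on the log2 scale. In each of the 4 libraries this window was the highest at its separation, being above 99.8% of 524 windows.

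The other focal contacts differed from 1B1 by -0.11 to 0.56. Those with Xrcc5, March4 and Tns1 fall outside the 8 with the highest ratio to their ring and are named because they lie in genes. The first bin of the anchor, which holds the Igfbp2 start, met the start of Xrcc5, the gene of the DNA repair protein Ku80, at 2.67 in 1A2, 2.86 in 1F4 and 2.24 in 1B1, against 2.93 in the treated library, a difference of 0.39 ± 0.21 from 1B1. The same bin met chr1:73542401-73548800 at 2.35, 2.33, 1.83 and 1.78, so that this site in the gene-poor interval was joined to either end of the anchor, with differences from 1B1 of -0.14 and -0.04 that lay within the counting error. The bin after it met chr1:72294401-72300800, inside the non-coding gene D230017M19Rik, at 3.26, 2.79, 2.46 and 2.68. The nearest contact, 76.8 kb from the last bin of the anchor to chr1:72998401-73004800, was 1.36, 1.38 and 1.23 in untreated cells and 1.75 in the treated library, higher than 1B1 by 0.51 ± 0.09. The contact of the Igfbp2 start bin inside Tns1 (chr1:74003201-74009600) was 2.91, 2.73, 2.30 and 3.39, a difference of 0.56 ± 0.28. The contact of an Igfbp2 bin inside March4 (chr1:72531201-72537600) was 1.26, 1.22, 1.11 and 1.02, a difference of -0.11 ± 0.26 from 1B1. Over all 14 focal contacts the median change was -0.12, with 9 lower and 5 higher than in 1B1. This median ran from -0.98 at a ring threshold of 2 to -0.09 with the median expected value, so that no size is read from it.

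In the untreated libraries the upstream and the downstream contacts began at different bins of the anchor. With the 3 bins around the Rpl37a start, the bin with the 3′ end of Igfbp2 was highest in the untreated libraries, at 4.98 in 1A2, 5.37 in 1F4 and 4.51 in 1B1, and the last bin of the anchor gave only 1.71, 1.44 and 1.43. With the far end of the gene-poor interval (chr1:73856001-73952000) the order was reversed, and the bin at chr1:72908801-72915200 inside Igfbp5 was highest, at 11.3 in 1A2 (10.1 to 12.5), 12.3 in 1F4 (11.2 to 13.6) and 9.45 in 1B1 (8.47 to 10.5), against 3.799, 4.37 and 4.86 at the 3′ end of Igfbp2. The bin between them gave intermediate values of 7.80, 8.89 and 7.47. The same Igfbp5 bin was highest with the 954 kb site taken alone, at 19.6 in 1A2, 20.2 in 1F4 and 14.6 in 1B1, against 5.96 in the treated library. In the treated library contact with Rpl37a was 2.33 in this Igfbp5 bin and 2.10 at the 3′ end of Igfbp2, with overlapping intervals. With the far end the treated library gave 4.69 in this Igfbp5 bin and 4.97 in the last bin of the anchor, also with overlapping intervals. For the neighbouring Igfbp5 start bin the far end gave 7.60, 11.05 and 8.54 in the untreated libraries, and its intervals in 1F4 (9.92 to 12.3) and 1B1 (7.56 to 9.60) overlapped those of the Igfbp5 bin.

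The whole gene-poor interval divided the anchor in the same way. Its contact was 0.760 in 1A2, 0.752 in 1F4 and 0.853 in 1B1 from the bin with the 3′ end of Igfbp2 and 2.03, 2.04 and 1.90 from the bin inside Igfbp5, with 1.35, 1.40 and 1.32 in the bin between them. In the treated library the same 3 bins gave 0.672, 1.18 and 0.879, so that the step remained and was smaller. The first bin of the anchor, at the Igfbp2 start, gave 0.741, 0.731, 0.769 and 0.752, and the treated interval of 0.686 to 0.822 overlapped those of the untreated libraries.

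The limits of the anchor were compared with the bins just outside them. Before the anchor, the bin at chr1:72864001-72870400 had contact with the gene-poor interval of 0.778 in 1A2, 0.694 in 1F4 and 0.764 in 1B1, against 0.671 in the treated library. After the anchor, the bin at chr1:72928001-72934400 gave 1.81, 1.86, 1.71 and 1.26, against 2.05, 2.24, 2.04 and 1.34 in the last bin inside, so that contact with the interval did not end at the limit of the anchor. Contact with Rpl37a went from 1.71 inside to 0.796 outside in 1A2, from 1.44 to 0.787 in 1F4, from 1.43 to 0.916 in 1B1 and from 1.62 to 0.786 after treatment. It was already falling inside the anchor, with 2.67 in 1A2 and 2.71 in 1F4 at the Igfbp5 start bin.

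**Figure D4:**
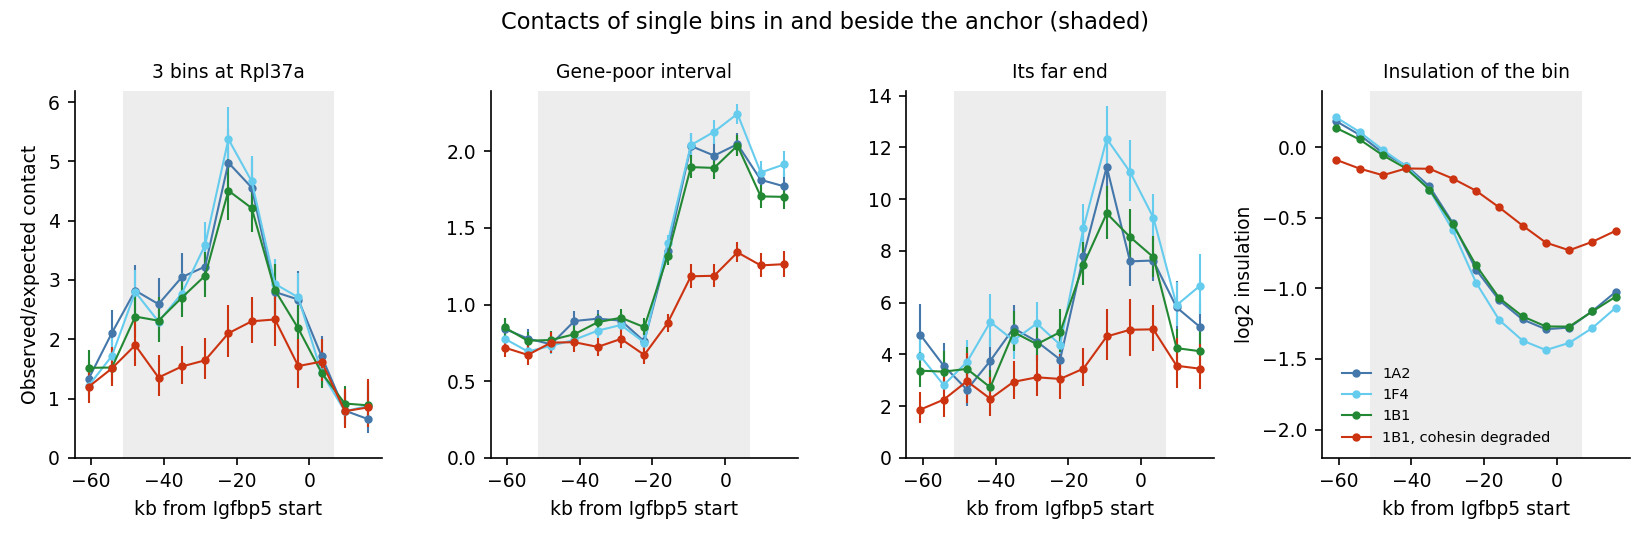
Values of each of the 9 anchor bins (shaded) and the 2 bins on either side against their distance from the Igfbp5 start in kb; the first 3 panels give observed/expected with exact 95% Poisson intervals for the 3 bins at Rpl37a, the gene-poor interval and its far end, and the fourth the log2 insulation of the bin. In the 3 untreated libraries the Rpl37a contact is highest at 4.51 to 5.37 near the 3′ end of Igfbp2, and the far end contact at 9.45 to 12.3 inside Igfbp5.

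Contacts across the anchor were depleted around the Igfbp5 start. To measure this, the mean contact between the 20 bins before a bin and the 20 bins after it was divided by its average over the region and put on the log2 scale, with low values at a boundary. Its mean over the 9 anchor bins was -0.75 in 1A2, -0.83 in 1F4 and -0.75 in 1B1, and -0.38 in the treated library, a change of 0.36. The lowest bin of the anchor was the Igfbp5 start bin in 1A2 (-1.29) and 1F4 (-1.44) and the bin after it in 1B1 (-1.27) and the treated library (-0.73). At the Igfbp2 start the value was -0.04, -0.02 and -0.06 in the untreated libraries and -0.20 in the treated library, and from there it fell bin by bin towards the Igfbp5 start in the untreated libraries. After treatment the anchor was still lower than most of the region, with a mean above only 5.10% of 510 stretches of 9 bins, compared with 3.92% in 1A2 and 4.31% in 1B1.

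The starts of Igfbp2 and Igfbp5 met each other less than the regional average in untreated cells. In the window of 3 by 3 bins at their start bins, observed/expected was 0.648 in 1A2 (0.573 to 0.730, 271 reads), 0.547 in 1F4 (0.486 to 0.613, 294 reads) and 0.593 in 1B1 (0.525 to 0.666, 281 reads). In the treated library it was 1.31 (1.203 to 1.42, 576 reads), higher than in 1B1 by 1.14 ± 0.10 on the log2 scale. The treated value lay above all 3 untreated values, and 1A2 and 1F4 differed from 1B1 by 0.13 and -0.11.

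Contacts of the whole anchor with other gene starts were read from windows of 3 bins, and 85 of 87 annotated genes could be measured. Genes whose starts share a window have the same value. The highest mean of 1A2 and 1F4 was at Rpl37a, with 3.17 in 1A2, 3.18 in 1F4 and 2.86 in 1B1, against 1.80 in the treated library, a fall by 0.66 ± 0.06 against 1B1. The 5S_rRNA copy in the gene-poor interval followed with 2.25, 2.40, 2.45 and 1.42. These 2 were the only gene starts at least 1.5-fold lower after treatment than in the lowest untreated library, or 2.35% of 85, beside 7.28% of all blocks. Next came AC120136.1, Xrcc5 and AC120136.3, all farther upstream than March4, with means of 2.29, 2.24 and 2.23 in untreated 1A2 and 1F4. Their treated values were 2.54, 2.23 and 2.56, against 2.24, 2.20 and 2.18 in 1B1.

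The lowest mean was at Resp18, which encodes an endocrine secretory protein, with 0.489 in 1A2, 0.541 in 1F4 and 0.914 in 1B1, against 0.809 in the treated library, from 7 to 17 reads. Tnp1, the nearest gene downstream, had the next lowest with 0.538, 0.541, 0.566 and 0.440 from 152 to 317 reads. Gmppa, a subunit gene of GDP-mannose synthesis, had 0.703, 0.656 and 0.712 in untreated cells and 1.43 after treatment. Atg9a, of autophagy, and Ankzf1 share a window that gave 0.947, 0.418 and 0.534 and then 1.38, from 8 to 35 reads.

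**Figure D5:**
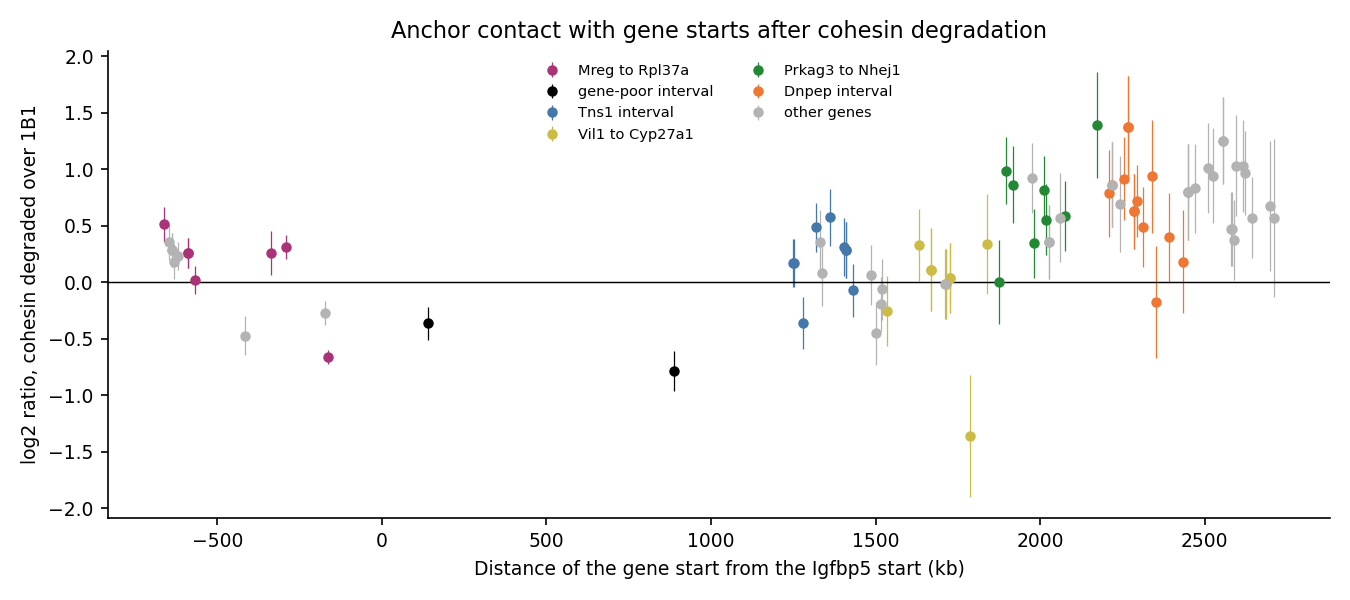
Log2 ratio of anchor contact, cohesin degraded over untreated 1B1, at 85 gene starts against their distance from the Igfbp5 start in kb, with counting errors and coloured by listed group. Rpl37a (-0.66) and the 5S_rRNA copy (-0.79) are the lowest of the well-covered points within 1 Mb, and the points beyond 2000 kb lie mostly above 0.

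Over all 85 gene starts the treated library was above 1B1 at 68 and above all 3 untreated libraries at 57, or 67.1%. Over all blocks of the region these shares were 49.8% and 36.8%, and over all blocks as far apart as the anchor is from Tns1 and the genes after it they were 48.1% and 31.1%. Among the anchor's own 262 windows from Tns1 onwards, with or without a gene start, they were 79.4% and 61.8%. Gene starts near each other share bins and therefore reads. All these counts are of observed/expected, which is relative to the mean of each library at the same separation. Some starts above 1B1 by this measure held fewer reads after treatment. The counts were not repeated without division by the expected value. The groups below are listed genes and do not hold every annotated start of their stretch, and of the 35 starts outside them 29 were above 1B1. Among the 7 listed genes from Mreg to Rpl37a the treated library was above 1B1 at 6 and below it at Rpl37a, and their median was 1.54 in 1A2, 1.73 in 1F4 and 1.75 in 1B1, against 2.09 after treatment. Of the starts in the same stretch that are not listed, Ankar, with 1.202, 1.15, 1.17 and 0.964, and the pseudogene Gm15843, with 0.715, 0.732, 0.820 and 0.590, were also below all untreated libraries. March4, a ubiquitin ligase gene, was the lowest of the 7 in untreated cells at 0.829, 0.740 and 0.790. In the Tns1 interval 7 of 9 listed starts were above 1B1 after treatment, none by 1.5-fold over all untreated libraries, and the median change was 0.29. By the mean of 1A2 and 1F4, Tns1 and Rufy4 share the highest value of that group, with 1.78, 1.97, 1.75 and 1.97, and Aamp and Pnkd the lowest, with 1.41, 1.41, 1.18 and 1.44, and other members passed these in single libraries. For 10 listed genes from Vil1, which encodes the actin bundler villin, to Cyp27a1 the median change was 0.04, with 6 above and 4 below. By the same mean Vil1 was highest, with 0.971, 1.47, 1.37 and 1.15, and Cyp27a1, of bile acid synthesis, lowest, with 0.463, 0.976, 0.682 and 0.860. The largest change of this group was at Ttll4, named after its values were seen, with 0.623, 1.32, 1.84 and 0.719, lower than 1B1 by 1.36 ± 0.54 from 10 reads after treatment.

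Median changes were larger at the far genes. Of 8 listed genes from Prkag3, of an AMPK subunit, to Nhej1, of DNA repair, 7 were above 1B1 and above all untreated libraries after treatment, with medians of 0.889 in 1A2, 0.909 in 1F4 and 0.915 in 1B1, against 1.47 in the treated library. The genes of the secreted ligands Wnt6 and Wnt10a and of Fev, a transcription factor of serotonergic neurons, passed 1.5-fold over all untreated libraries. Among all windows of the anchor from Tns1 onwards 32 of 262 did, or 12.2%, beside 8.23% of all blocks at these separations. Wnt10a had 1.098, 1.22, 1.04 and 1.90 and Wnt6 had 1.12, 1.13, 0.906 and 1.80. Fev, the lowest of the group by the mean of 1A2 and 1F4, had 0.846, 0.774, 0.928 and 1.63 from 27, 28, 34 and 69 reads. Of 14 listed genes of the Dnpep interval 13 were above 1B1, by a median of 0.75, and Tuba4a, an alpha-tubulin gene, was the only one to pass 1.5-fold, with 1.33, 1.06, 1.31 and 2.15. Dnpep, an aminopeptidase gene, was the highest of them by the mean of 1A2 and 1F4, with 1.55 and 1.22, and had 1.06 in 1B1, against 1.40 in the treated library. Over all 85 gene starts the median change was 0.35, and 6 were higher by the 1.5-fold rule, or 7.06%, beside 8.46% of all blocks.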

How the data were processed

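Capture-C libraries were sequenced from 4 mESC samples, 1 per group as the labels give them. The authors mapped reads to mm9 with HiC-Pro 2.11.4, per the submitters' processing notes, counted valid pairs in 6.4 kb bins and balanced them by the ICE method. What was deposited is this balanced signal for each bin pair, scaled to the same total in every library, so that it carries no depth of its own. The methods name baits only for a region on chromosome 15, but the maps also hold the region on chromosome 1 used here. The deposited bin table gives bin positions (unit: other), and its chromosome 1 length of 197195432 equals that of NCBIM37. Read pairs were recovered as signal divided by 1 factor per bin, solved by least squares. No value deviated from a whole number by more than 0.00862 reads, so 100% lay within the tolerance of 0.05. Recovery and the contact measures were tested on simulated data. Totals were 3214144 (1A2), 4089968 (1F4), 3234581 (1B1) and 3622612 (cohesin degraded) read pairs, and 6 bins without a balanced value in any one library were left out.

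Observed/expected was the sum of balanced values over the sum of the mean at each separation. Focal contacts were 3 by 3 windows at 1.5 or more times the mean of their surroundings (11 by 11 bins without the inner 5 by 5) in 1A2 and 1F4, at least 50 reads in each, a local maximum within 5 bins and a separation of at least 60 kb. With 1 library per group no test was made. Counting errors treat reads as Poisson. The assay holds no expression, so the cell type was not checked against markers. Named sites were the anchor genes, their nearest neighbours, Tns1, the 8 focal contacts with the highest window/ring ratio and the 5 highest and 5 lowest gene starts, with the extremes of each gene list. The anchor, the lists and these rules were chosen with earlier results of these data known. Genes came from GENCODE M1 (mm9), and 0 columns were left unmapped. Alternatives covered the expected value, window size, unbalanced reads and thresholds. Python 3.11.15, numpy 2.4.6, scipy 1.17.1 and matplotlib 3.10.9 were used.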

Additional observations from a re-analysis of the deposited data

How the results depend on the processing

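Of 61 alternatives to 14 values, 34 left the value within its counting error (counts within 1.5-fold), 26 moved it and 1 reversed it, and the cause was not tested. Downstream over upstream contact (log2), from 60 to 750 kb, came to -0.52 (1A2), -0.56 (1F4), -0.53 (1B1) and -0.70 after degradation, a change of -0.18. Limited to 60 to 500 kb it was -0.70 in 1A2, -0.74 in 1F4 and -0.69 in 1B1, and the change reversed to 0.021, so no direction is given for that change. With unbalanced reads the 4 values were -0.37, -0.43, -0.39 and -0.64, the change -0.26, the focal median -0.34, the Igfbp5 start series -1.49, the gene-poor interval -0.62, insulation 0.26 and the contact between the gene starts 0.92. Without division by the expected value the focal median was -0.74, the series -1.77 and the interval -1.01. The focal median was -0.34 with windows of 5 bins, -0.98 over the 7 contacts left at a ring threshold of 2, -0.58 with at least 100 reads and -0.55 when called in 1F4 alone, so its size depends on which contacts are called. The median expected value gave 10 higher windows and a gene start median of 0.24. A fold of 2 left 21 lower and 6 higher windows, and squares of 10 bins gave an insulation change of 0.59. The alternatives of the series median were chosen after seeing the data. Depth limits values beyond 2000 kb, where gene starts held few reads. No paired analysis was possible because each group has 1 library and no test was made.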

Other observations

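Reads that joined the anchor to the captured regions of other chromosomes were few. With the region on chromosome 15 the anchor shared 27 reads in 1A2, 24 in 1F4, 39 in untreated 1B1 and 47 after cohesin degradation, out of 1047, 1180, 1347 and 1888 reads that joined the whole chromosome 1 region to it. This is 2.58%, 2.03%, 2.90% and 2.49% in that order. With chromosome X the anchor held 4, 5, 8 and 7 reads. These reads were not balanced against any expected value, and their numbers limit what can be said about single sites.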
